A study of Mus musculus with 18 samples.

Results

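Clic6, Kcnk1 and Gabrp are 3 ion channel genes of epithelial cells, described here as 3 of the 24493 genes in an RNA-sequencing table of mouse pancreatic tumor cells. They were picked by name because their transcripts were lower in Kdm3a knockout cells than in wild-type (WT) cells of both tumor cell lines studied, so their knockout-against-WT values chose them and are given as a description without a test. All 3 were in the table, and all 3 passed the filter on low values, which asked for an average of 1 TPM or more across 18 libraries (TPM, transcript abundance scaled to transcript length and to the total of the library).

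The study used 2 tumor cell lines of the C57BL/6 background, 6419c5 and 6694c2, grown as subcutaneous tumors and sorted before RNA extraction, with no treatment. A WT group and 2 groups labelled as Kdm3a knockouts were made from each line. The product of Kdm3a removes methyl groups from histone H3 lysine 9. Each of these 6 groups had 3 libraries. Each knockout group is 1 clone, named clone A or clone B here; clones that carry the same letter in both lines are unrelated. The labels do not give the sort marker, the way the knockout was made or say that replicate libraries are separate animals, so p-values measure only the spread between these libraries, which may be technical.

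Kdm3a transcripts, which check the labels, fell by 0.75 on the log2(TPM + 1) scale in 6419c5 (adjusted p = 0.0185 by limma, a linear model fitted across all genes) and by 0.75 in 6694c2 (adjusted p = 0.0091), although clone A of 6419c5 overlapped its WT group. The table gives no read depth. Between 12213 and 13590 genes reached 1 TPM in a library, and 1 small RNA gene, Mir6236, took 6.04% to 17.36% of the TPM. The keratin genes Krt8, Krt18 and Krt19, which mark simple epithelium, had group means of 1056 to 4387 TPM. Not all epithelial markers were that high. Over the libraries, Cdh1 was at 169 to 568 TPM, Krt7 at 37.7 to 1217 TPM, Epcam at 0.745 to 273 TPM and Ocln at 0.291 to 22.2 TPM. Cldn3, Cldn4 and Cldn7 reached at most 16.5, 15.7 and 33.6 TPM and were listed at 0 in 2, 2 and 1 libraries. Acinar and endocrine pancreas markers were low, with means over their 6 genes of at most 0.96 and 0.11 log2(TPM + 1) in any group. The exception was the acinar elastase gene Cela1, named after its values were seen, at 8.47 to 42.2 TPM over the libraries. Macrophage genes were present in all groups and uneven between libraries. In 3 libraries (replicate 1 of 6694c2 clone A, replicate 3 of 6694c2 clone B and replicate 3 of WT 6419c5), genes of other cell types stood apart from the rest of the group, and results are also given without them where that moved a call. Other groups were uneven too. Macrophage genes summed to 138 to 1740 TPM in 6694c2 WT and 2317 to 8306 TPM in 6419c5 clone A. Skeletal muscle genes summed to 45.1 to 118 TPM in 6419c5 clone A. In such bulk RNA, fewer cells of a type and less RNA per cell cannot be told apart.

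Ion channels let epithelial cells move chloride, potassium and sodium across their apical and basolateral membranes, and in the pancreatic duct such transport drives the secretion of bicarbonate-rich fluid. Clic6 belongs to the chloride intracellular channel family, whose members exist in soluble and membrane-bound forms. Kcnk1, also known as TWIK-1, is a two-pore domain potassium channel, a family that carries background potassium current and helps set the resting membrane potential. Gabrp encodes the pi subunit of the GABA-A receptor, a ligand-gated chloride channel, and unlike most subunits of that receptor it is known mainly from epithelial tissues outside the brain.

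By the mm10 annotation (GENCODE M21), Clic6 (ENSMUSG00000022949.9) lies on the plus strand of chromosome 16, from 92485736 to 92541243. Its 6-exon transcript of 3758 bases starts at 92498134, and a 3-exon transcript of 376 bases starts inside the same-strand gene 2410124H12Rik, which ends at 92497366. 2410124H12Rik was between 0 and 2.77 TPM in the 18 libraries, with its highest value in clone B of 6419c5, where Clic6 was lowest. In 6694c2 its groups overlapped, at 0 to 0.651 TPM in WT, 0.405 to 0.756 TPM in clone A and 0.518 to 1.08 TPM in clone B. Its part in the Clic6 values was not tested. Kcnk1 (ENSMUSG00000033998.9) lies on the plus strand of chromosome 8, from 125995170 to 126030685, with 3 exons in its longest transcript of 2235 bases. Its 3′ end overlaps the antisense gene Gm45875 (126029248 to 126046808), and since the sources used here do not say whether strand was used in quantification, reads of that overlap cannot be assigned. Gabrp (ENSMUSG00000020159.8) lies on the minus strand of chromosome 11, from 33550781 to 33578959, with 10 exons in its longest transcript of 3280 bases.

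The promoter table from RefSeq (build GRCm38.p6) held 2 of the 3 genes, Kcnk1 and Gabrp. Their 250 bases upstream of the start are shown because these genes were low together in the knockout clones. The Kcnk1 window is chr8:125994852-125995101 on the plus strand and the Gabrp window is chr11:33578958-33579207 on the minus strand, both printed 5′ to 3′. A CACCC match, found only in the Gabrp window, is in capitals.
Kcnk1: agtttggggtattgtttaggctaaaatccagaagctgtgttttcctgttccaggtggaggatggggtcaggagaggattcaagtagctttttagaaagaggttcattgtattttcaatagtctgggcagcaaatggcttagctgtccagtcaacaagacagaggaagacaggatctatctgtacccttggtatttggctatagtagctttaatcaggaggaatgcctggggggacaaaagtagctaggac
Gabrp: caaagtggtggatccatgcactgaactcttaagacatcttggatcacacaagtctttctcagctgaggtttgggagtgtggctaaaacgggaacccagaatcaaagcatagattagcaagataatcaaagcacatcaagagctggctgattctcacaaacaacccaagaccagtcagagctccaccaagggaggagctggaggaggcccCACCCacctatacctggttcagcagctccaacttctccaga
The Kcnk1 window had 44.4% G and C and 0 CG pairs, and the Gabrp window had 49.2% and 1 CG pair. The 32851 windows of this length in the table had a median of 52.4% and a median of 6 CG pairs, so both windows held fewer CG pairs than that median. The 5 motifs searched, on both strands, were the GC box GGGCGG, the CACCC box, the AP-1 motif TGANTCA, the FOX motif TGTTTAC and the GRHL motif AACCGGTT. The only match was the CACCC box at 41 bases before the Gabrp start, a motif that 52.0% of all windows held. The shares for the other motifs were 32.7% for GGGCGG, 6.75% for TGANTCA, 3.17% for TGTTTAC and 0.116% for AACCGGTT. A match in such letters is a description of the window, and the absence of one says only that these letters were not found there.

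All 12 knockout libraries were below all WT libraries of their line for Clic6, Kcnk1 and Gabrp alike. The share of all genes with libraries separated in this way was not computed, here or for the separations given below. By a different rule, limma adjusted p under 0.05, 3.4% of all genes tested were called lower in the knockouts of 6419c5 and 5.79% in those of 6694c2. The direction was what chose these 3 genes. Their depth of fall, their starting level and the distance between the clones differed from gene to gene.

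Clic6 was highest in 6694c2 WT. Its WT libraries had 31.4, 23.6 and 22.3 TPM in 6694c2 and 3.83, 3.64 and 2.70 TPM in 6419c5. In 6694c2, clone A had 2.72, 2.15 and 1.83 TPM and clone B had 0.561, 0.673 and 0.750 TPM. In 6419c5, clone A had 0.421, 0.215 and 0.136 TPM and clone B had 0.0822, 0.105 and 0.0726 TPM. The WT groups did not overlap with any clone of their own line, but 6419c5 WT overlapped with 6694c2 clone A in 1 library, at 2.72 TPM against the lowest WT library at 2.70 TPM, with group means of 2.23 TPM for the clone and 3.39 TPM for that WT. Relative to the WT mean, clone A kept 7.60% in 6419c5 and 8.67% in 6694c2, and clone B kept 2.56% and 2.57%. On the log2(TPM + 1) scale, which understates the change of low genes, the mean of both clones was -1.90 against WT in 6419c5 and -3.52 in 6694c2. Although the log2 differences were far apart, the shares kept were close in both lines.

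For the WT groups, Kcnk1 had the opposite order. In 6419c5 its WT libraries were at 15.02, 16.4 and 12.004 TPM, against 2.39, 5.58 and 4.80 TPM for WT 6694c2. In 6419c5, clone A had 0.293, 1.16 and 1.19 TPM, while clone B had 0.0349 and 0.0308 TPM in replicates 1 and 3 and was listed at 0 in replicate 2. In 6694c2, clone A had 1.303, 0.796 and 1.06 TPM and clone B had 0.0873, 0.272 and 0.0386 TPM. Clone A of the 2 lines overlapped at about 1 TPM, and clone B of both lines was below 0.3 TPM in every library. Relative to the WT mean, clone A kept 6.08% in 6419c5 and 24.7% in 6694c2, and clone B kept 0.151% (counting the library listed at 0) and 3.12%. The log2 difference of the mean of both clones from WT was -3.49 in 6419c5 and -1.74 in 6694c2. In 6694c2 the WT group was spread widely, at 4.25 ± 1.66 TPM (SD, n = 3), and its lowest library was the one closest to clone A.

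Gabrp was the most abundant of the 3 in 6419c5. In 6419c5 its WT libraries were at 102, 69.8 and 68.9 TPM, against 14.1, 13.9 and 17.7 TPM for WT 6694c2. In 6419c5, clone A had 40.4, 29.8 and 28.3 TPM and clone B had 0.782, 1.96 and 0.963 TPM. In 6694c2, clone A had 10.2, 12.4 and 11.99 TPM and clone B had 3.48, 2.61 and 2.65 TPM. No neighbouring groups in the order of levels overlapped: 6419c5 WT was highest, then 6419c5 clone A, 6694c2 WT, 6694c2 clone A, 6694c2 clone B and 6419c5 clone B. Clone A of 6419c5 thus held more Gabrp transcript than the WT of 6694c2. Relative to the WT mean, clone A kept 40.9% in 6419c5 and 75.6% in 6694c2, and clone B kept 1.54% and 19.1%. The log2 difference of the mean of both clones from WT was -3.23 in 6419c5 and -1.21 in 6694c2, and clone A alone was at -0.37 in 6694c2.

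**Figure D1:**
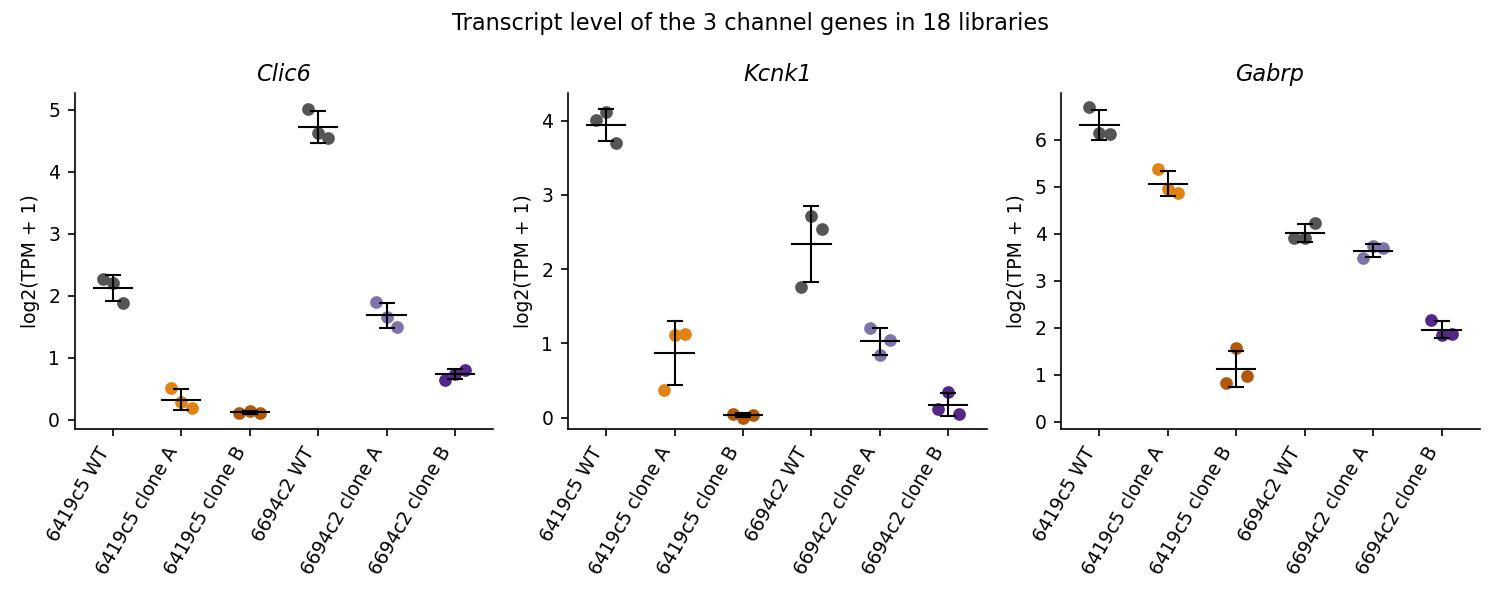
Level of Clic6, Kcnk1 and Gabrp on the log2(TPM + 1) scale in each of the 18 libraries, by group. Points are libraries, the long bar is the group mean and the error bar is the SD (n = 3). Each knockout library lies below the WT libraries of its line, and clone B lies below clone A.

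**Figure D2:**
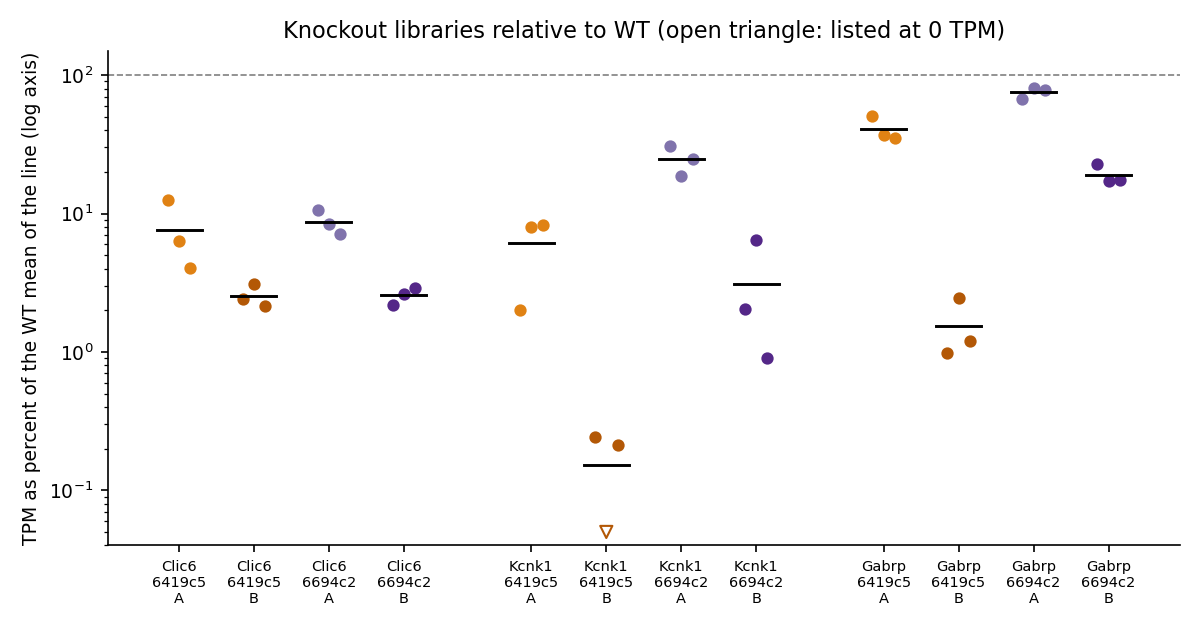
Knockout libraries as percent of the WT mean of their line, on a log axis; points are libraries, bars are means of 3 and the dashed line is the WT mean. Clic6 clones sit at similar percentages in both lines (7.60% and 8.67% for clone A, 2.56% and 2.57% for clone B), while Gabrp runs from 75.6% to 1.54%. The open triangle marks the Kcnk1 library listed at 0.

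The comparison of clone B with clone A within a line asks whether clones with the same targeted gene differ, and it was not the contrast that chose the genes. Of the 3 genes, Gabrp had the largest clone difference on the log2(TPM + 1) scale. As a ratio of mean TPM, Kcnk1 differed more, at 40.2-fold in 6419c5 (counting the library listed at 0) and 7.94-fold in 6694c2, and with a pseudocount of 0.1 it was also the larger in 6694c2, at -2.41 beside -1.96 for Gabrp. These Kcnk1 ratios rest on clone B means of 0.0219 TPM in 6419c5 and 0.133 TPM in 6694c2, near the floor and with unknown read depth. In 6419c5 Gabrp was 26.6-fold higher in clone A than in clone B, a log2 difference of clone B minus clone A of -3.94 (SE 0.20, limma adjusted p = 4.14e-08), the 56th lowest of 13422 genes tested. In 6694c2 it was 3.95-fold higher in clone A (-1.68, SE 0.20, adjusted p = 0.000435). All 3 clone B libraries were below all 3 clone A libraries in both lines, a separation whose share over all genes was not computed.

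Clic6 differed between the clones of 6694c2, with clone A 3.37-fold higher (-0.95, SE 0.16, limma adjusted p = 0.00349). In 6419c5 its fitted difference of -0.20 did not pass the test (SE 0.16, adjusted p = 0.414), although no clone B library reached the level of a clone A library. Values there were all under 0.5 TPM, where a pseudocount of 1 leaves little room for a difference. With a pseudocount of 0.1 the difference was -0.86 (adjusted p = 0.0447).

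Clone B of 6419c5 also held less Kcnk1 than clone A, by a log2 difference of -0.84 (SE 0.25, limma adjusted p = 0.0214). For the clones of 6694c2 that difference was -0.86 (SE 0.25, limma adjusted p = 0.0432). These were the least firm calls of the 6. The first was lost when any single library of either clone of 6419c5 other than clone A replicate 1 was left out, with adjusted p up to 0.0926. The second was lost without any 1 of 11 libraries (all 6 of the clones of 6694c2, the 3 of 6419c5 clone B and 6419c5 WT replicates 1 and 2), with adjusted p up to 0.146. Without the 3 libraries that stood apart, the difference was -0.71 in 6694c2 (adjusted p = 0.181).

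For all genes tested, 26.3% differed between the clones of 6419c5, of which clone B was lower for 18.9% of the genes tested, and 9.53% differed between those of 6694c2, with 4.26% lower in clone B. With median-of-ratios scaling, the split in 6419c5 was 1666 genes higher and 1818 lower in clone B in place of 991 and 2543. Kdm3a itself was lower in clone B than in clone A of 6419c5 (-0.59, limma adjusted p = 0.0477) and not past the threshold in 6694c2 (0.03, adjusted p = 0.957). Macrophage markers moved with it. Their 10 genes summed to 2317 to 8306 TPM in clone A and 205 to 427 TPM in clone B of 6419c5, and all 10 of 10 were lower in clone B by the same test. In 6694c2 the sums were 3273 to 6228 TPM in clone A and 418 to 3419 TPM in clone B, and 0 of 10 passed. With the mean log2 level of the macrophage markers (the macrophage index) as a covariate, the Gabrp difference was -4.49 in 6419c5 (limma adjusted p = 7.96e-07) and -1.98 in 6694c2 (adjusted p = 0.000297), and that of Clic6 in 6694c2 was -1.01 (adjusted p = 0.0185). With the same covariate, the Kcnk1 differences were past the threshold in neither line. They were -0.73 in 6419c5 (SE 0.40, limma adjusted p = 0.25) and -0.80 in 6694c2 (SE 0.30, adjusted p = 0.197). Without the covariate they were -0.84 and -0.86, each with an SE of 0.25, so the estimates moved little and the SE grew. For 6419c5, every clone A library had an index of 6.75 or more, and no clone B library exceeded 4.14. Index and clone thus went together there, and their parts in the Kcnk1 difference were not told apart. Epithelial markers also moved: 6 of 10 were lower in clone B of 6419c5 and 1 of 10 in clone B of 6694c2, and their part in these differences was not tested. Other lists moved too: 5 of 5 tested skeletal muscle, 4 of 7 fibroblast and 2 of 6 neutrophil markers were lower in clone B of 6419c5, and 4 of 6 neutrophil, 3 of 7 fibroblast and 3 of 5 tested endothelial markers in clone B of 6694c2. Their part was not tested either. The epithelial markers' mean log2(TPM + 1) went down from WT (7.89) through clone A (7.12) to clone B (6.18) of 6419c5, and likewise from 5.91 through 5.26 to 4.86 for 6694c2. This list followed the same order of groups within each line as Clic6, Kcnk1 and Gabrp, while their summed TPM changed less, from 10264 to 12264 TPM in 6419c5 WT against 9301 to 10128 TPM in its clone B. In 6694c2 the sums did not follow that order, at 6514 to 8247 TPM in WT, 5382 to 5937 TPM in clone A and 5703 to 7354 TPM in clone B.

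The comparison of the WT groups asks how the unedited lines differ. Clic6 was 7.60-fold higher in 6694c2 WT than in 6419c5 WT (a log2 difference of 2.602 with an SE of 0.16, limma adjusted p = 1.89e-08). Kcnk1 was 3.40-fold higher in 6419c5 WT (-1.60 for 6694c2 minus 6419c5, SE 0.25, adjusted p = 9.88e-05) and Gabrp 5.26-fold higher there (-2.31, SE 0.20, adjusted p = 4.63e-07). For none of the 3 did the WT groups overlap, and all 3 calls held under every one of 27 alternatives. The same WT libraries were part of the contrast that chose the genes, and 46.3% of all genes tested differed between the WT groups, 32.2% being lower in 6694c2. As deposited, 1894 of these genes were higher and 4319 lower in 6694c2, and with median-of-ratios scaling 2917 were higher and 2820 lower. Marker lists also differed between the WT groups. Of the epithelial markers, 9 of 10 were lower in 6694c2 WT, with a median log2 difference of -2.22, and 3 of 6 neutrophil markers were lower there. Skin keratinocyte markers went the other way, with 2 of 3 tested higher in 6694c2 WT and a median of 1.66. Their 6 genes summed to 116 to 138 TPM there and 8.34 to 10.2 TPM in 6419c5 WT. Most of the sum in 6694c2 WT was Krt14, named after its values were seen, which reached 130 TPM over the 18 libraries. The highest values of Krt5, Krt10, Krt1, Dsg3 and Lor were 1.20, 2.73, 0.0551, 0.167 and 10.6 TPM. The part of these lists in the differences was not tested. Macrophage markers were again uneven, with 4 of 10 lower in 6694c2 WT, and with the macrophage index as a covariate the differences were 2.55, -1.55 and -2.59 for Clic6, Kcnk1 and Gabrp.

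**Figure D3:**
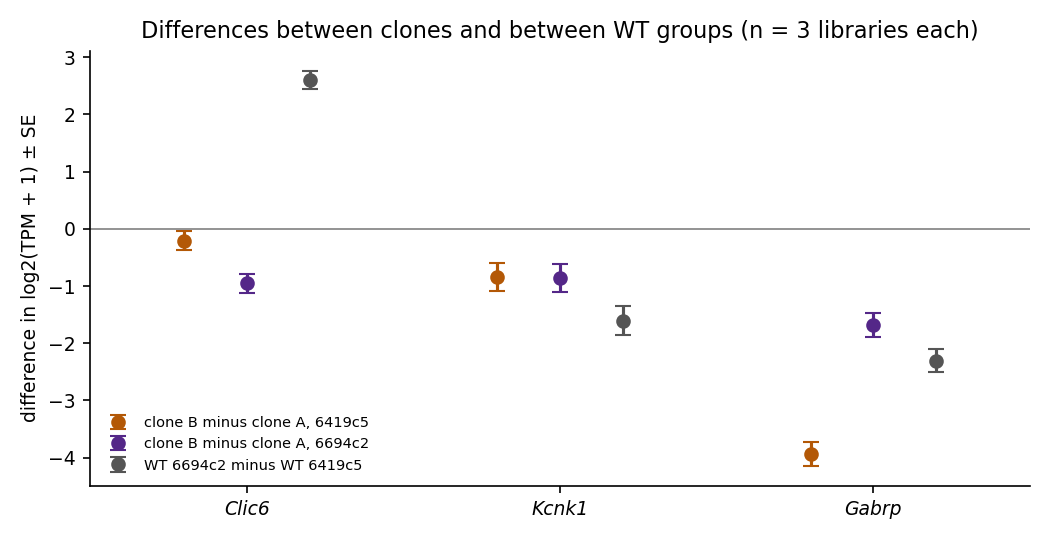
Differences between clones and between WT groups for the 3 genes, on the log2(TPM + 1) scale, with points for the limma estimate and bars for its SE. On this scale Gabrp has the largest difference between clones (-3.94 in 6419c5), and Clic6 is the gene that was higher in 6694c2 WT.

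Across the 18 libraries the 3 genes did not share 1 pattern. The Pearson correlation of log2(TPM + 1) was 0.81 for Kcnk1 and Gabrp, 0.61 for Clic6 and Kcnk1 and 0.36 for Clic6 and Gabrp. Within a line (9 libraries each) the order of the lines no longer entered. The correlation of Clic6 and Kcnk1 was then 0.97 in 6419c5 and 0.93 in 6694c2. That of Clic6 and Gabrp was 0.75 and 0.78, and that of Kcnk1 and Gabrp was 0.80 and 0.84. After the group means were removed the correlations were -0.42 for Clic6 and Kcnk1, -0.24 for Kcnk1 and Gabrp and 0.11 for Clic6 and Gabrp. The falls against WT that chose the 3 genes enter the correlations over all libraries and within a line, so those are in part fixed by that choice. These libraries also share their groups and scaling, so the correlations are descriptions.

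By the same measure, the 5 genes most like each of the 3 were found among all genes tested. For Clic6 they were Wnt7a, a secreted Wnt ligand (r = 0.97), Ccdc149 (0.96), Rasgrf1, a guanine nucleotide exchange factor of Ras (0.94), Pitpnm3 (0.94) and Egr3, an early growth response transcription factor (0.93). All 5 were highest in 6694c2 WT; Wnt7a, for example, had a mean of 6.84 TPM there, 1.33 TPM in 6419c5 WT and at most 1.65 TPM in a knockout group. For Kcnk1 they were Chst4, a sulfotransferase (0.93), St14, the membrane serine protease matriptase (0.93), Otop3, a proton channel of the otopetrin family (0.92), the noncoding RNA Dio3os (0.92) and Cybrd1, a ferric reductase (0.88). All 5 were highest in 6419c5 WT, and St14 had 5.98 TPM there, with clone A of that line at 1.75 TPM and clone B at 0.161 TPM. For Gabrp they were F5, coagulation factor V (0.95), Serinc2 (0.94), 2310007B03Rik (0.93), P4hb, a protein disulfide isomerase (0.93), and Kcne3, a potassium channel subunit (0.92). P4hb had a small range, from 1014 TPM in 6419c5 WT to 779.7 TPM in its clone B, while Serinc2 went from 127 to 13.2 TPM in the same groups. All of these genes were picked by their likeness over 18 libraries, so the shared profile is by construction.

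**Figure D4:**
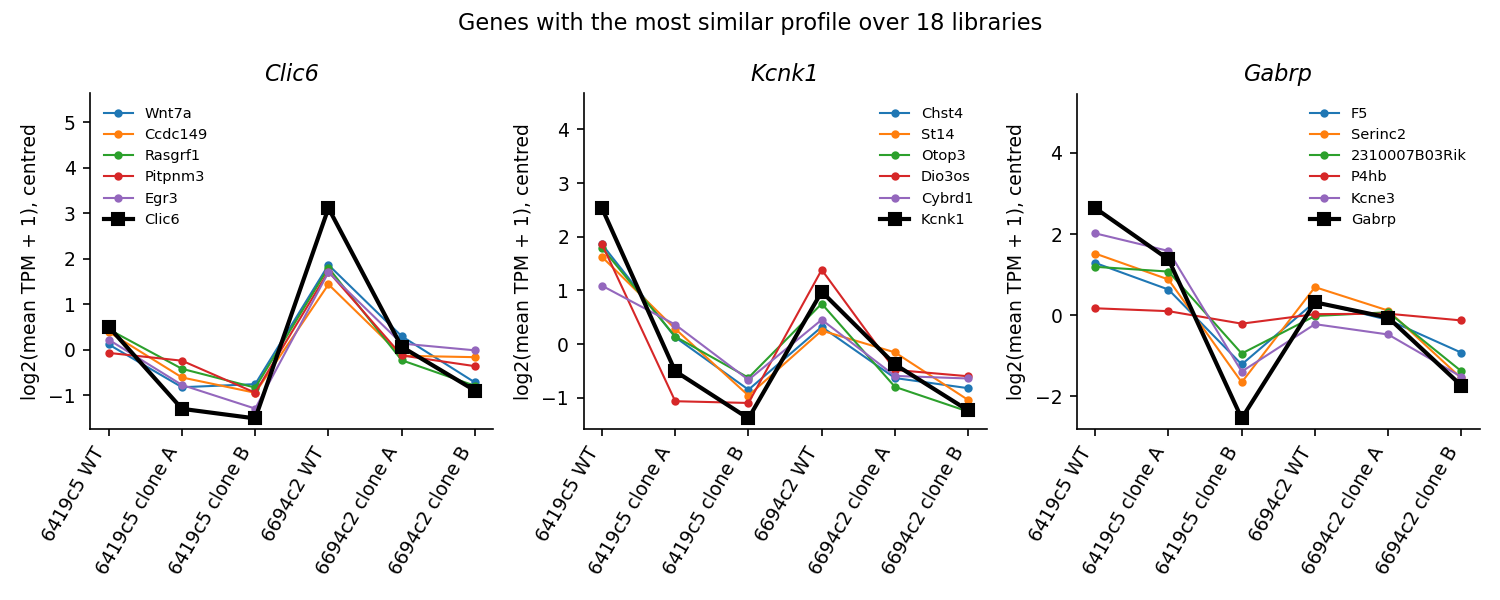
Group profiles of Clic6, Kcnk1 and Gabrp (black squares) and of the 5 genes most like each over the 18 libraries, as log2 of the group mean TPM plus 1, centred on the mean of the 6 groups. Clic6 and its 5 genes peak in 6694c2 WT, and Kcnk1, Gabrp and their genes are below their own mean in clone B of 6419c5.

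Other genes of the same families and of epithelial ion transport were listed by role, 87 in all, in a list made with earlier results of these data known. Of these, 47 passed the filter on low values. In 6419c5, 3 rose and 6 fell in the mean of both clones, 19.1% of the 47, against 7.38% of all genes tested. In 6694c2, 3 rose and 10 fell, 27.7% against 20.4% of all genes. Over both lines, 1 rose and 10 fell, 23.4% against 18.4%. The balance of rises and falls moved with the scaling: with median-of-ratios scaling, 1 rose and 6 fell in 6419c5, 0 rose and 15 fell in 6694c2, and 0 rose and 11 fell over both lines. The median log2 difference of the 47 was 0.03 in 6419c5, 0.04 in 6694c2 and 0.04 over both lines, beside 0.01, 0.15 and 0.08 for all genes.

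None of the nearest relatives of Clic6, Kcnk1 and Gabrp was called lower in the mean of both clones of either line. By clone, 2 of the 4 two-pore domain channels tested were lower than WT in clone B of 6419c5: Kcnk6 (-1.51, limma adjusted p = 0.022) and Kcnk13 (-1.81, adjusted p = 0.0426), both named after their values were seen. In that clone, 18.9% of all genes tested were called against WT, and 10 of 10 macrophage markers were lower. The part of macrophage cells in the Kcnk6 and Kcnk13 values was not tested. Of the CLIC family, 4 of 4 were tested and 0 passed in 6419c5, 6694c2 or both lines by limma, with 1, 1 and 2 of them at an unadjusted p under 0.05; their differences lay between -0.00 and 1.34. These are Clic1, Clic3, Clic4 and Clic5, named after their values were seen; Clic1 was at 702 ± 46.7 TPM in 6419c5 WT and 783 ± 133 TPM in 6694c2 WT (SD, n = 3), far above Clic6. Of 13 other two-pore domain potassium channels, 4 were tested and 1 passed: Kcnk5, an acid-sensitive channel of transporting epithelia, rose by 0.55 in 6694c2 (limma adjusted p = 0.0488), with WT at 3.06 ± 0.849 TPM, clone A at 3.38 ± 1.14 TPM and clone B at 7.24 ± 2.36 TPM (SD, n = 3). Its call was lost in 21 of 28 alternatives. Of 18 other GABA-A receptor subunits, 17 were under the filter, at 0.843 TPM or less in every library. The remaining subunit, Gabre, was at 4.91 ± 0.0338 TPM in 6419c5 WT and 6.67 ± 1.38 TPM in 6694c2 WT (SD, n = 3) and did not pass (-0.04 and 0.20, limma adjusted p = 0.922 and 0.267). Gabrp was thus the subunit with the highest level in WT of both lines, and no alpha or beta subunit reached 1 TPM in any library.

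Of the other epithelial potassium channels, 3 of 10 were tested, and they fell in 2 of 3 cases in 6419c5 and in 3 of 3 in 6694c2. Kcnq1 is the pore of a basolateral channel and Kcne3 its auxiliary subunit in secretory epithelia. In 6419c5, Kcnq1 had 29.4, 32.9 and 28.2 TPM in WT, 15.6, 27.96 and 25.4 TPM in clone A and 3.69, 2.76 and 3.38 TPM in clone B. Its log2 difference was -1.64 (SE 0.23, limma adjusted p = 0.00032), with clone B alone at -2.87 (adjusted p = 5.49e-06) and clone A alone at -0.42 (adjusted p = 0.506). Kcne3 in the same groups had 33.1, 26.2 and 38.2 TPM, then 16.3, 30.4 and 24.7 TPM, then 3.69, 2.02 and 0.756 TPM, a difference of -1.98 (SE 0.26, limma adjusted p = 0.000159). For Kcne3, clone A overlapped WT, and for both genes clone B was far below. Clone B minus clone A was -2.45 for Kcnq1 (limma adjusted p = 2.21e-05) and -3.04 for Kcne3 (adjusted p = 9.39e-06), a difference between clones in the same direction as that of Gabrp.

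In 6694c2 both were low in WT already. Kcnq1 had 5.78, 4.28 and 4.87 TPM in WT, 4.87, 1.79 and 1.58 TPM in clone A and 2.65, 2.15 and 2.03 TPM in clone B (-0.82, limma adjusted p = 0.0217). The clone A library that overlapped WT was replicate 1, one of the 3 that stood apart. Kcne3 had 6.32, 4.99 and 6.99 TPM in WT, 5.13, 4.76 and 4.96 TPM in clone A and 2.37, 1.97 and 1.31 TPM in clone B (-0.78, adjusted p = 0.0452), and this call was lost in 16 of 28 alternatives. A test of whether the lines differed in the knockout effect did not pass for either (0.83, limma adjusted p = 0.132 for Kcnq1, and 1.21, adjusted p = 0.053 for Kcne3), beside 8.71% of all genes tested that did. Kcnn4, a calcium-activated channel at 235 ± 19.2 TPM in 6419c5 WT and 284 ± 43.1 TPM in 6694c2 WT (SD, n = 3), fell by 0.43 in 6694c2 (adjusted p = 0.00798) and did not pass in 6419c5 (-0.09, adjusted p = 0.746).

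Of the epithelial anion channels and transporters, 15 of 17 were tested, and over both lines 5 fell and 0 rose, with 33.3% called. Slc26a9, a chloride channel and transporter of the apical membrane, fell in all 4 clones. It had 13.0, 14.5 and 8.01 TPM in 6419c5 WT, 5.80, 7.16 and 5.03 TPM in clone A and 3.37, 4.13 and 4.40 TPM in clone B (-1.09, SE 0.19, limma adjusted p = 0.00209). In 6694c2 it had 14.4, 12.01 and 12.9 TPM in WT, 8.24, 5.01 and 3.99 TPM in clone A and 6.54, 6.18 and 6.49 TPM in clone B (-1.02, SE 0.19, adjusted p = 0.00185). No clone overlapped its WT, each clone passed alone with differences of -0.85, -1.34, -1.11 and -0.93, and both calls held under all 28 alternatives. Of all genes tested, 4.79% and 18.9% were called in clones A and B of 6419c5 and 21.7% and 14.5% in those of 6694c2. Unlike Gabrp, its clones did not differ past the threshold (-0.49, adjusted p = 0.124 in 6419c5; 0.18, adjusted p = 0.675 in 6694c2).

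Cftr, the apical chloride and bicarbonate channel of duct cells, fell in 6419c5 (-1.13, SE 0.31, limma adjusted p = 0.0374) and did not pass in 6694c2 (-0.31, adjusted p = 0.507). Its WT groups were uneven, at 63.9 ± 37.3 TPM in 6419c5 and 13.8 ± 8.12 TPM in 6694c2 (SD, n = 3), and the call in 6419c5 was lost in 13 of 28 alternatives. Ano9, of the anoctamin family, fell in 6419c5 (-0.73, adjusted p = 0.0136), from 3.47 ± 0.358 TPM in WT to 0.353 ± 0.212 TPM in clone B, with clone A at 4.51 ± 1.3 TPM. Lrrc8a, the obligate subunit of the volume-regulated anion channel, fell in 6694c2 (-0.51, limma adjusted p = 0.000549) with WT at 35.9 ± 2.02 TPM, clone A at 24.4 ± 2.21 TPM and clone B at 25.5 ± 1.25 TPM, and was -0.26 in 6419c5 (adjusted p = 0.0737). Its partner subunit Lrrc8d rose by 0.26 in 6694c2 (adjusted p = 0.0183), a call lost with each of the 3 other scalings. Ano1 and Ano6, calcium-activated members of the anoctamin family, fell in 6694c2 (-0.58, adjusted p = 6.23e-05, and -0.24, adjusted p = 0.0341), whereas Ano1 in 6419c5 rose by 0.26 (adjusted p = 0.0461), a call lost in 20 of 28 alternatives.

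Of the pumps, cotransporters and water channels, 13 of 14 were tested. Slc9a2, an apical sodium-proton exchanger, fell in both lines. It had 23.7, 24.5 and 22.0 TPM in 6419c5 WT, 17.9, 16.9 and 17.8 TPM in clone A and 12.3, 11.0 and 12.7 TPM in clone B (-0.65, limma adjusted p = 0.00505). In 6694c2 it had 20.4, 19.3 and 18.7 TPM in WT, 5.93, 8.18 and 7.99 TPM in clone A and 17.1, 16.5 and 10.6 TPM in clone B (-0.85, adjusted p = 0.000322). No clone overlapped its WT, but the clone order was not that of Clic6, Kcnk1 and Gabrp in 6694c2, where clone B was above clone A by 0.90 (adjusted p = 0.00291). Fxyd3, a regulator of the sodium pump, fell in 6694c2 (-0.74, limma adjusted p = 0.00931) and not past the threshold in 6419c5 (-0.46, adjusted p = 0.147). Aqp8, a water channel, rose by 0.69 in 6419c5 (adjusted p = 0.0341) and fell by 0.55 in 6694c2 (adjusted p = 0.0486), from 1.54 ± 0.363 and 0.928 ± 0.122 TPM in WT (SD, n = 3), calls lost in 9 and 15 of 28 alternatives. The rise of Aqp8 in 6419c5 was that of clone B, at 1.455 against WT, while clone A was not above WT. Of the epithelial sodium and other cation channels, 7 of 11 were tested and 0 passed in either line by limma, with 0 in 6419c5 and 1 in 6694c2 at an unadjusted p under 0.05.

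**Figure D5:**
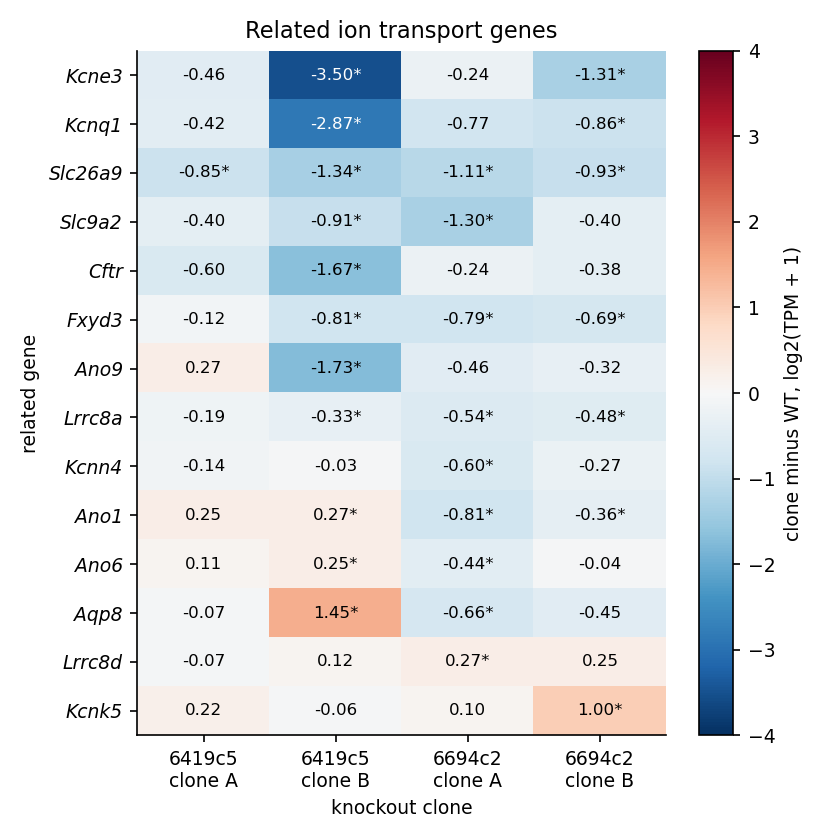
Log2 difference of each knockout clone from the WT of its line for 14 of the 15 related genes called in a knockout contrast; an asterisk marks a limma adjusted p under 0.05 for that clone. Kcne3 and Kcnq1 are lowest in clone B of 6419c5 (-3.50 and -2.87), and Slc26a9 is marked in all 4 clones.

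Other cell types were checked beside these values. Of the 10 epithelial markers, 5 fell in each line and 0 rose, beside 3.4% of all genes tested that were lower in 6419c5 and 5.79% in 6694c2. The macrophage list had 0 of 10 called in the mean of both clones in either line, but by clone 10 of 10 were lower in clone B of 6419c5 and 7 of 10 higher in clone A of 6694c2 than in WT. Of all genes tested, 18.9% and 21.7% were called in those clones. In the mean of both clones of 6694c2, 5 of 6 neutrophil, 4 of 4 tested T and NK cell, 3 of 7 fibroblast and 2 of 5 tested endothelial markers were higher, and none of these lists had a call in 6419c5. Of all 13422 genes tested, 1967 were higher in that contrast of 6694c2 as deposited and 1028 with median-of-ratios scaling. The part of these lists in the values of Clic6, Kcnk1 and Gabrp was not tested, apart from the macrophage covariate. With the macrophage index as a covariate, the log2 differences of the mean of both clones from WT for Clic6, Kcnk1 and Gabrp were -1.93, -3.46 and -3.36 in 6419c5 and -3.48, -1.78 and -0.998 in 6694c2. Without the 3 libraries that stood apart they were -2.02, -3.61 and -3.32 in 6419c5 and -3.59, -1.75 and -1.15 in 6694c2.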

How the data were processed

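RNA sequencing of 18 libraries was used as 1 table of TPM values per gene, deposited by the authors; Salmon and the mm10 build are named in the submitters' processing notes, and further settings, including what the word batch in the table's name stands for, are not given in the sources used here. TPM are not counts, so read depth is unknown and no count model or counting interval was used. The scale used was log2(TPM + 1), and 13422 of 24493 genes reached the minimum mean of 1 TPM. A single model with 1 mean per group, leaving 12 residual degrees of freedom, was fitted to all libraries with limma 3.58.1 (R 4.3.3) and a trended prior. Benjamini-Hochberg adjustment ran over all genes tested, and adjusted p under 0.05 was called. The procedure was tested on simulated data. Figures were drawn with Python 3.11.15, pandas 2.3.3 and matplotlib 3.10.9.

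The contrasts were the mean of both clones minus WT in each line and over both (not tested for Clic6, Kcnk1 and Gabrp), each clone minus WT, clone B minus clone A, WT 6694c2 minus WT 6419c5, and knockout effect in 6694c2 minus that in 6419c5. Clone letters come from the columns; A was read as the KO1 of the titles and B as KO2, which touches only names. The 3 genes, the 87 related genes and the marker lists were chosen with earlier results of these data known. Named genes are the 3 genes, Kdm3a, related genes called in a line or over both lines, and the 5 genes with the highest Pearson correlation with each of the 3. Alternatives were a pseudocount of 0.1, no filter, 3 other scalings, no trend, a macrophage covariate, a replicate block, fits on 1 line, leaving out each library and, chosen after seeing the data, leaving out 3 libraries together. Promoter windows came from RefSeq (GRCm38.p6). One related gene called in a knockout contrast is counted but not reported here by name.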

Additional observations from a re-analysis of the deposited data

Results flagged for a closer look

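For 4 of the 47 related genes tested, the knockout effect differed between the lines by limma's test of the difference itself (6694c2 minus 6419c5), beside 8.71% of all genes tested. The difference was -0.844 for Ano1 (adjusted p = 0.000199), which was 0.26 against WT in 6419c5 and -0.584 in 6694c2. It was -0.419 for Ano6 (adjusted p = 0.0214), with 0.183 and -0.236 in the 2 lines. It was -0.645 for Slc12a7, a potassium-chloride cotransporter named after its values were seen (adjusted p = 0.0141), with 0.349 and -0.296. It was -1.25 for Aqp8 (adjusted p = 0.00937), with 0.693 and -0.554, at levels of 0.238 to 6.10 TPM in the group means. In the mean of both clones, all 4 had opposite signs in the 2 lines, although clone A of 6419c5 did not share the rise of Aqp8.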

How the results depend on the processing

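The single-gene differences recomputed under the alternatives were those of Clic6, Kcnk1 and Gabrp and the knockout differences of called related genes. None of these changed sign. Other single-gene differences given here were not recomputed in this way. For Clic6, Kcnk1 and Gabrp, 158 of 168 recomputed knockout differences moved by less than the spread between replicates, and 225 of 249 recomputed tests kept their side of the threshold. The Gabrp clone differences, that of Clic6 in 6694c2 and the 3 WT differences kept theirs in every alternative. Of the 913 values of single related genes, 742 kept their call and 171 lost it. With a pseudocount of 0.1, the knockout differences were -3.78 (Clic6), -5.49 (Kcnk1) and -3.63 (Gabrp) in 6419c5 and -4.27 (Clic6) and -3.06 (Kcnk1) in 6694c2; the Clic6 clone difference in 6419c5 was -0.86, past the threshold; and 2 related genes rose over both lines in place of 1.

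Median-of-ratios scaling moved the median of all genes for the knockouts of 6694c2 from 0.15 to -0.03, and the split of calls from 1967 higher and 777 lower to 1028 and 1792 (914 and 1622 with quantile normalization). The Clic6 knockout difference in 6694c2 was -3.70 with median-of-ratios scaling, -3.74 with quantile normalization and -3.75 without the 20 most abundant genes, where it was -2.12 in 6419c5. That of Kcnk1 in 6694c2 was -2.12 with quantile normalization. The Kcnk1 clone difference lost its call in 6694c2 with median-of-ratios scaling (-0.87, limma adjusted p = 0.051) and in both lines with quantile normalization (-0.66, adjusted p = 0.0507, and -0.65, adjusted p = 0.0948) and with the macrophage covariate (-0.73 and -0.80). It lost it in 6694c2 without the 3 libraries that stood apart (-0.71) and in the fit on that line alone (-0.86, adjusted p = 0.0936). Related genes that rose, 3 in each line, numbered 1 in 6419c5, 0 in 6694c2 and 0 over both lines with median-of-ratios scaling and with quantile normalization, and 0 in each line without the 20 most abundant genes. They numbered 3 over both lines with the covariate, 1 in 6419c5 and 2 over both lines without the 3 libraries, and 1 in 6419c5 and 0 in 6694c2 in fits on 1 line. The cause of each move was not tested.

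Leaving out 1 library at a time gave Kcnk1 clone differences of -1.09 to -0.71 in 6419c5 and -0.95 to -0.77 in 6694c2. Related genes that rose then numbered 0 to 4 in 6419c5, 1 to 5 in 6694c2 and 1 to 3 over both lines, those that fell in 6694c2 numbered 6 (without WT replicate 2) to 11, and 0 to 1 had a higher knockout effect in 6694c2. Over all groups together, same-numbered libraries were not more alike than others. Deviations from the group means correlated with a median of -0.04 over 45 same-numbered pairs and 0.02 over 90 others. A median over all pairs cannot show whether particular groups were paired. With a replicate block, 1 related gene rose in 6694c2 in place of 3, and no call of Clic6, Kcnk1 or Gabrp changed. The table gives no depth, so values under about 0.1 TPM carry no known counting error.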
